A study of Arabidopsis thaliana with 4 samples.

Results

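EXPA4 (AT2G39700) and EXPA8 (AT2G40610) encode alpha-expansins, and ATPMEPCRB (AT4G02330), also named pectin methylesterase 41, encodes a pectin methylesterase. The probe sets described are those whose platform annotation names exactly 1 of these 3 genes. These 3 genes are among 3592 that have a named probe set. They had 4 of the 8247 probe sets analysed: 1 for EXPA4 (12515_at), 1 for EXPA8 (19660_at) and 2 for ATPMEPCRB (14612_at and 19267_s_at). All 4 reached the brightness needed for a test on at least 1 array, and no probe set that names several genes held any of the 3.

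RNA of Arabidopsis thaliana rosette leaves (ecotype Col-5) was hybridised to 4 Affymetrix arrays, and each group has 1 array. The groups were no phosphate at 100 h, full nutrients at 100 h, no phosphate at 4 h and full nutrients at 4 h, where the hours run from nutrient removal. All plants were raised on agar with sucrose for 21 days and then moved to hydroponics in constant light. The full solution held 0.25 mM phosphate as the potassium salt, and the no-phosphate solution left that salt out and carried 0.125 mM of extra potassium sulphate. How many plants went into an array is not stated. No group has a replicate, so every difference below lacks a replicate check. A p-value covers only the spread among 4 arrays, drawn largely from all probe sets together. The title of the array labelled full nutrients at 100 h carries a code of the kind found on the no-phosphate arrays. The numbers in the title codes also differ from the labelled hours. The age and treatment labels were followed, so each ratio of 100 h to 4 h below rests on the age labels, and values that avoid the full-nutrient array at 100 h are given for phosphate.

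Plant cell walls are networks of cellulose fibres, xyloglucan and pectin, and a leaf grows where these networks yield to turgor. Expansins are secreted proteins that loosen contacts between wall polymers in acidic walls without cutting them. Pectin methylesterases remove methyl groups from homogalacturonan, a main pectin. This can stiffen the wall through calcium bridges or open pectin to degrading enzymes, and the expression of the gene for pectin methylesterase 41 has been studied in chilled Arabidopsis plants.

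The signal is an intensity in arbitrary units, scaled alike on all arrays before deposit. Intensities under 7.25, here called the floor, are too dim to be ordered, and a ratio to such an array is a bound. Between 2 arrays, a signal was called higher or lower if it differed by at least 2-fold and its brighter value reached 22.45, the level. The measurement SD of a log2 ratio was 0.54 for time without phosphate, 0.48 for time in full nutrients, 0.43 for phosphate at 100 h and 0.38 for phosphate at 4 h. It was taken from the disagreement between probe sets of the same gene, over 91 genes with 193 probe sets, and covers neither plants nor hybridisations.

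Leaf identity and array quality were checked in the same data. Of 9 photosynthesis genes chosen as leaf markers, 4 had a named probe set, and their 5 probe sets lay between 55.7 and 7665.2. The only measured gene of 6 for flowers and pollen, VGD1, lay between 0.30 and 15.4. None of the 7 root, 4 seed and 12 phosphate starvation genes listed had a named probe set, so those checks were not made here. The mean scanner background was 69.92, 55.21, 56.94 and 49.74 on the no-phosphate 100 h, full-nutrient 100 h, no-phosphate 4 h and full-nutrient 4 h arrays.

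EXPA8 had higher signal at 100 h than at 4 h in both solutions. Its intensity was 1948.8 without phosphate and 1421.5 with full nutrients at 100 h, against 277.9 without phosphate and 336.0 with full nutrients at 4 h. Both 100 h arrays lay above both 4 h arrays. How many of all probe sets split by time in this way was not counted, here or for the probe sets below. The order of the 4 levels was no phosphate at 100 h, full nutrients at 100 h, full nutrients at 4 h and no phosphate at 4 h. The first 2 differed by 0.46 on the log2 scale, or 1.06 measurement SDs, and the last 2 by 0.27, or 0.73 measurement SDs, so only the middle step of 2.08, or 4.38 SDs, stood well outside the error of measurement.

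**Figure D1:**
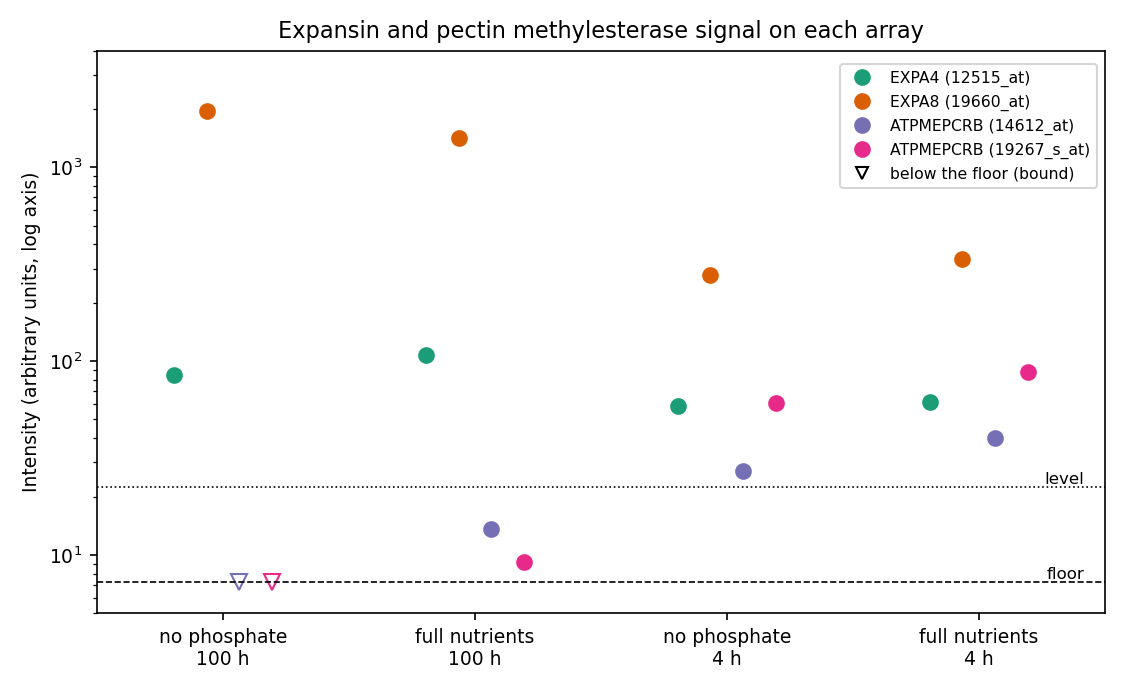
Intensity (arbitrary units, log axis) of the 4 probe sets of EXPA4, EXPA8 and ATPMEPCRB on each of the 4 arrays, 1 point per array. Open triangles stand at the floor of 7.25 (dashed line) for values below it, and the dotted line is the level of 22.45. At 100 h EXPA8 sits at 1948.8 without phosphate and 1421.5 with full nutrients, above its 4 h values, while both probe sets of ATPMEPCRB sit below the level at 100 h and above it at 4 h.

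Without phosphate the EXPA8 signal was 7.01-fold higher at 100 h than at 4 h, a log2 ratio of 2.81. In full nutrients it was 4.23-fold higher, a log2 ratio of 2.08. Both ratios passed the 2-fold rule, as did 15.3% of the probe sets tested without phosphate and 6.44% of those tested in full nutrients in the higher direction. EXPA8 ranked 59th from the top of 4534 probe sets without phosphate and 29th of 4516 in full nutrients. In limma's additive model of time and phosphate, fitted across 4756 probe sets, EXPA8 rose by 2.45 ± 0.37 (log2, SE, n = 4 arrays, 95% interval 1.52 to 3.37, limma adjusted p = 0.0487). It was higher at 100 h in both solutions. Only 6 probe sets, or 0.126%, were called higher for time in this fit, which called 96 in all.

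That call passed the threshold by little. The effect stayed between 2.28 and 2.57 under 6 alternative settings, but the adjusted p ranged from 0.00248 to 0.317 and among these settings was under 0.05 only with the floor at the 45th percentile. The fit has 1 residual degree of freedom, which holds any difference between the solutions as well as chance. On the same arrays the summed intensity of the leaf marker probe sets was 23055.4 without phosphate and 24736.4 with full nutrients at 100 h, against 11645.3 without phosphate and 18605 with full nutrients at 4 h. The part of this shift in the EXPA8 change was not tested, and in whole leaves more cells of a type cannot be told apart from more RNA per cell.

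EXPA4, the other alpha-expansin chosen, varied over a narrow range. Its intensity was 85.2 without phosphate and 108.1 with full nutrients at 100 h, against 58.9 without phosphate and 61.7 with full nutrients at 4 h. The 100 h arrays were again above the 4 h arrays, but the whole range spanned only 1.84-fold. The levels ran from full nutrients at 100 h through no phosphate at 100 h and full nutrients at 4 h to no phosphate at 4 h. No step between neighbours in that order exceeded 1 measurement SD, the widest being 0.47 on the log2 scale, or 0.95 SDs.

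The EXPA4 ratio of 100 h to 4 h was 1.45-fold without phosphate and 1.75-fold in full nutrients (log2 ratios 0.53 and 0.81), so neither passed the 2-fold rule. They lay 0.99 measurement SDs (without phosphate) and 1.70 (full nutrients) from no change. Of the probe sets tested, 28.2% without phosphate and 9.90% in full nutrients had ratios at least as high. The time effect was 0.67 ± 0.33 (log2, SE, n = 4 arrays, 95% interval -0.18 to 1.52) and did not pass the test (limma adjusted p = 0.307). Its time ratios had the same sign as those of EXPA8. Whether EXPA4 and EXPA8 differ in their change with time was not tested.

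ATPMEPCRB had the opposite direction, with both of its probe sets dim at 100 h and bright at 4 h. Probe set 19267_s_at was below the floor without phosphate (deposited as 2.4) and at 9.20 with full nutrients at 100 h, against 60.7 without phosphate and 88.3 with full nutrients at 4 h. Probe set 14612_at was below the floor without phosphate (deposited as 1.3) and at 13.6 with full nutrients at 100 h, against 27.2 without phosphate and 40.0 with full nutrients at 4 h. On both probe sets the 2 arrays of 100 h lay under the 2 of 4 h, and all 4 arrays came in the same order: full nutrients at 4 h, no phosphate at 4 h, full nutrients at 100 h, no phosphate at 100 h. On 14612_at the steps were 1.47, 2.19 and at least 2.11 measurement SDs. On 19267_s_at they were 1.43, 5.96 and at least 0.80, so the steps between solutions were less clear than that between times there.

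Without phosphate the ATPMEPCRB signal was at least 8.37-fold lower at 100 h than at 4 h on 19267_s_at and at least 3.75-fold lower on 14612_at. In full nutrients it was 9.60-fold lower (log2 ratio -3.26) on 19267_s_at and 2.94-fold lower (log2 ratio -1.56) on 14612_at. All of these ratios passed the 2-fold rule, which 17.4% of the probe sets tested without phosphate and 12.7% of those tested in full nutrients passed in the lower direction. With the floor at the 45th percentile, 14612_at without phosphate no longer reached 2-fold (log2 ratio -0.65), and 19267_s_at in full nutrients had -2.35. As reported, on 19267_s_at the ratio was among the 99 lowest of 4534 without phosphate and the 35 lowest of 4516 in full nutrients.

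In limma's additive fit 19267_s_at fell by 3.16 ± 0.33 over both solutions (log2, SE, n = 4 arrays, 95% interval -4.01 to -2.32, limma adjusted p = 0.0443). It was lower at 100 h in both solutions, and 1.89% of the 4756 probe sets were called lower for time. The other probe set, 14612_at, had -1.73 ± 0.34 (95% interval -2.59 to -0.88) and did not pass (limma adjusted p = 0.0805). Both effects are fitted values with 1 of the 4 arrays set to the floor, and their size depends on the floor: with it at the 45th percentile they were -2.08 (19267_s_at) and -0.93 (14612_at). Both probe sets reached the level only on the 4 h arrays, so they entered the test through the time at which they were brighter. With no filter on level the limma adjusted p of 19267_s_at was 0.236. Over the 6 alternatives the effect of 19267_s_at ran from -3.96 to -2.08, with adjusted p from 0.00539 to 0.236, and it was called in 2 of them.

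The probe sets of ATPMEPCRB gave the same direction but not the same size. In full nutrients, where no value was at the floor, their log2 time ratios differed by 1.71, against an SD of 0.67 for the difference of 2 such ratios. ATPMEPCRB is itself among the 91 genes behind that SD. Without it the measurement SD of a single ratio in full nutrients was 0.46 instead of 0.48. The suffix _s_at is Affymetrix's mark for a probe set whose probes may match more than 1 transcript, so 19267_s_at could also report related genes. Pectin methylesterase 39 (AT4G02300) lies 3 protein-coding genes away from ATPMEPCRB in the RefSeq order. Its own probe set was below the floor on all 4 arrays. The genes between them, AT4G02310 and AT4G02320, have 1 named probe set each, whose values were not examined. AT4G02320 lies directly next to ATPMEPCRB. Which ATPMEPCRB probe set is nearer to the transcript's change was not tested.

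**Figure D2:**
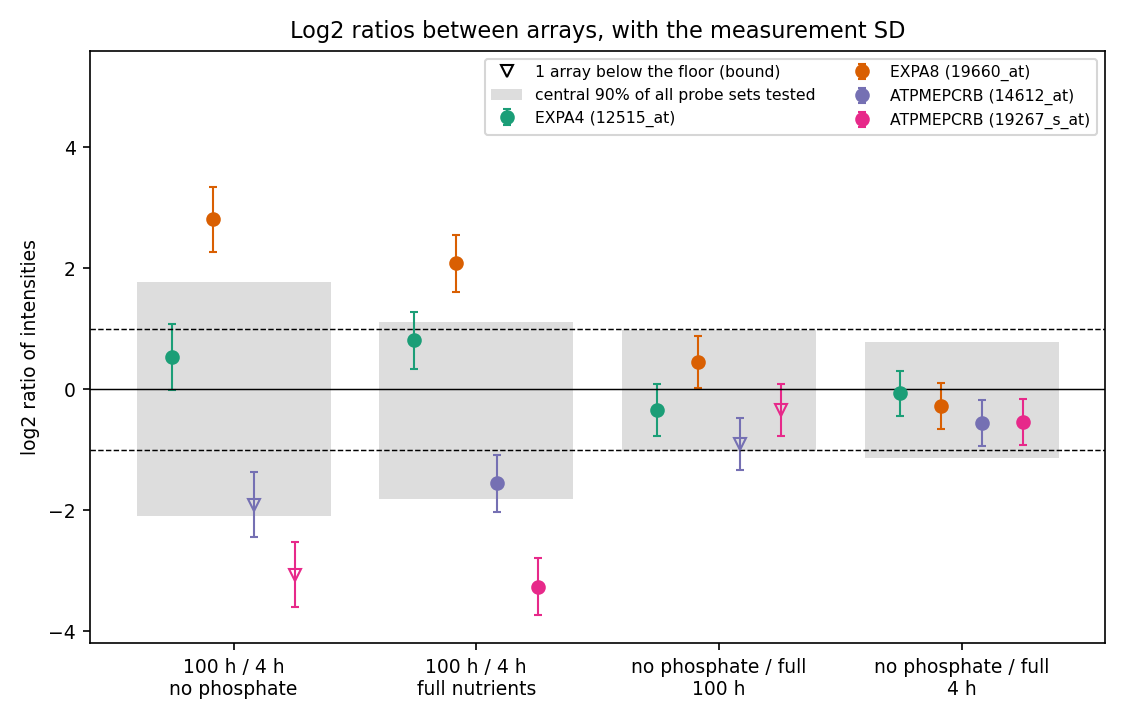
Log2 ratios of intensity for the 4 probe sets in the 4 comparisons, with bars of ±1 measurement SD (0.54, 0.48, 0.43 and 0.38 from left to right) and grey boxes for the central 90% of all probe sets tested. Open triangles are bounds, with 1 array below the floor, and dashed lines mark 2-fold. EXPA8 stands above the grey boxes and ATPMEPCRB 19267_s_at below them in both time comparisons, and for phosphate no ratio as computed reaches 2-fold, although those of ATPMEPCRB at 100 h are bounds.

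Phosphate removal gave smaller ratios than time for EXPA8, while for ATPMEPCRB at 100 h only bounds could be had. At 100 h EXPA8 was 1.37-fold higher without phosphate (log2 ratio 0.46, from 1948.8 without phosphate and 1421.5 with full nutrients), and EXPA4 was 1.27-fold lower (log2 ratio -0.34, from 85.2 without phosphate and 108.1 with full nutrients). ATPMEPCRB was at least 1.88-fold lower on 14612_at and at least 1.27-fold lower on 19267_s_at, but neither full-nutrient value (13.6 on 14612_at and 9.20 on 19267_s_at) reached the level, so these 2 were not tested. With the floor at the 15th percentile, the log2 ratios were -2.73 on 14612_at and -1.94 on 19267_s_at. Neither of the 2 probe sets tested was called, against 10.1% of all probe sets in either direction. EXPA8 was thus at 1.06 and EXPA4 at 0.80 measurement SDs from no change.

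At 4 h all 4 probe sets were a little lower without phosphate. The ATPMEPCRB ratios were close to each other, at 1.47-fold lower on 14612_at (log2 ratio -0.56, from 27.2 without phosphate and 40.0 with full nutrients) and 1.45-fold lower on 19267_s_at (log2 ratio -0.54, from 60.7 without phosphate and 88.3 with full nutrients). EXPA8 had a log2 ratio of -0.27 and EXPA4 one of -0.07. None of the 4 was called, against 8.87% of all probe sets in either direction. The median of the 4 was -0.41, beside 0.02 for all probe sets tested.

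Over both times, none of the 4 passed limma's test for phosphate, which called 0 of the 4756 probe sets (0%; 89 had an unadjusted p under 0.05, and no other tool was run). The effects were 0.09 ± 0.37 for EXPA8 (95% interval -0.84 to 1.02), -0.21 ± 0.33 for EXPA4 (-1.05 to 0.64), -0.44 ± 0.33 for 19267_s_at (-1.28 to 0.40) and -0.73 ± 0.34 for 14612_at (-1.59 to 0.12), all as log2 with SE, n = 4 arrays and limma adjusted p = 0.999. The smallest unadjusted p among the 4 was 0.0800 in limma's fit, for 14612_at. Both ATPMEPCRB effects were fitted with the no-phosphate 100 h array set to the floor, so their sizes and intervals hold only for that floor. With the floor at the 15th percentile they were -1.64 (14612_at) and -1.24 (19267_s_at). With it at the 45th percentile they were -0.28 (14612_at) and -0.27 (19267_s_at). The intervals leave room for a change of 2-fold in EXPA8 in the higher direction and in EXPA4 in the lower direction. Those of ATPMEPCRB also include 2-fold lower, but do not cover the choice of floor.

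These phosphate ratios move with how the arrays are scaled. The 9 probe sets for spiked-in control RNA, present in each hybridisation, had a mean log2 ratio of -1.06 ± 0.24 at 100 h and -0.51 ± 0.12 at 4 h (SD over probe sets) for no phosphate over full nutrients. Scaling to them moved the median of all probe sets to 1.06 at 100 h and 0.52 at 4 h, and EXPA8 then had log2 ratios of 1.52 and 0.24, 1 of them past 2-fold. Of all probe sets tested at 100 h, 60.4% were then called in either direction. EXPA4 had 0.72 and 0.45 and so changed sign at both times. The ATPMEPCRB ratios at 4 h shrank to -0.04 (14612_at) and -0.03 (19267_s_at). With this scaling the 4 probe sets were thus no longer all lower without phosphate at 4 h. The part of the spike-in difference in these ratios was not tested. When the 100 h no-phosphate array was set against full nutrients at 4 h, EXPA8 was 5.80-fold higher, and ATPMEPCRB at least 5.52-fold (14612_at) and at least 12.2-fold (19267_s_at) lower, so that 3 of the 4 were called, against 25% of all probe sets. That comparison differs in time as well as in phosphate.

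The phosphate ratio of EXPA8 was positive at 100 h and negative at 4 h, a difference of 0.73 on the log2 scale. With spike-in scaling both ratios were positive, so the opposite directions depended on the scaling. Among 4756 probe sets, 36.4% had a difference at least as large in either direction. The same difference was -0.28 for EXPA4, -0.35 for 14612_at and 0.20 for 19267_s_at, the last 2 with a value at the floor. None of these differences was tested, because a model with both effects and their interaction leaves no residual degree of freedom.

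**Figure D3:**
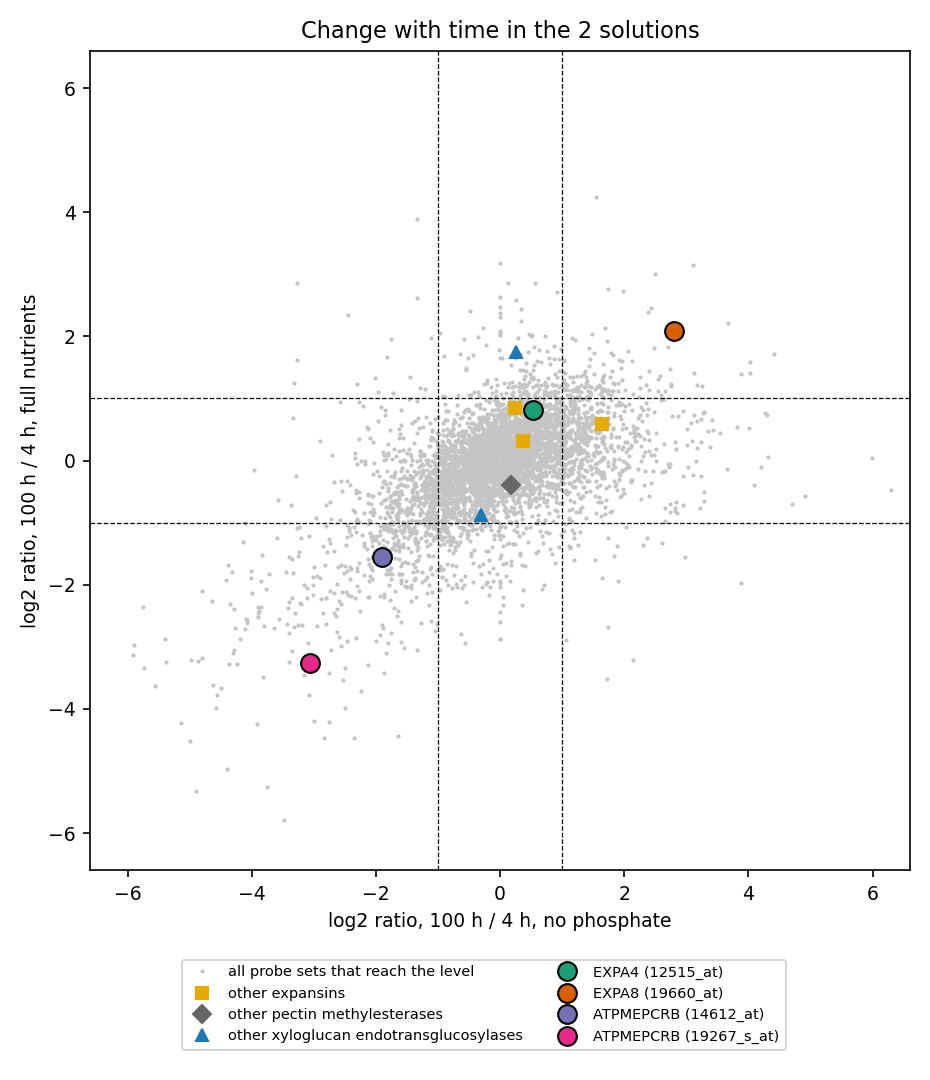
Log2 ratio of 100 h to 4 h with full nutrients (vertical) against the same without phosphate (horizontal) for the 4756 probe sets that reached the level, with no array shared between the axes. Dashed lines mark 2-fold. EXPA8 (2.81 and 2.08) lies in the upper right and both probe sets of ATPMEPCRB in the lower left, while EXPA4 and 4 of the 6 other cell wall probe sets lie within 2-fold in both solutions.

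Among the other expansins, 1 ratio passed the 2-fold rule, that of EXPB1 for time without phosphate. Of 38 genes listed as expansins by symbol or synonym, 7 were measured, EXPA4 and EXPA8 among them. EXPB1, a beta-expansin, was at 47.5 without phosphate and 24.2 with full nutrients at 100 h, against 15.3 without phosphate and 16.1 with full nutrients at 4 h on 20675_at. Its log2 time ratio was 1.63 without phosphate, past 2-fold, and 0.59 in full nutrients. Its time effect of 1.11 ± 0.40 did not pass the test (log2, SE, n = 4 arrays, limma adjusted p = 0.206), and its second probe set did not reach the level.

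EXPA15, another alpha-expansin, was at 32.3 without phosphate and 54.4 with full nutrients at 100 h, against 27.3 without phosphate and 30.3 with full nutrients at 4 h (time effect 0.54 ± 0.35, limma adjusted p = 0.407). EXPB2 had a time effect of 0.34 ± 0.33 (limma adjusted p = 0.570), both with n = 4 arrays. The expansin-like gene EXLA2 and EXPA20 did not reach the level on any array. Across the tested probe sets of these other expansins the median log2 time ratio was 0.94 without phosphate (2 probe sets, 1 called higher) and 0.59 in full nutrients (3 probe sets, none called). Over all probe sets tested, the medians were -0.02 in both solutions, and 15.3% without phosphate and 6.44% in full nutrients were called higher.

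Of 23 pectin methylesterase genes found by name, 3 were measured: ATPMEPCRB, pectin methylesterase 39 and ATPMEPCRD (AT2G43050). A gene of the family without such a symbol or synonym would be missed. ATPMEPCRD was at 41.8 without phosphate and 42.1 with full nutrients at 100 h, against 36.8 without phosphate and 55.1 with full nutrients at 4 h. Its time effect was -0.10 ± 0.35 (log2, SE, n = 4 arrays, limma adjusted p = 0.890). Its log2 time ratios were 0.18 without phosphate and -0.39 in full nutrients, neither past 2-fold. No gene named as a pectate lyase, pectin lyase or polygalacturonase had a named probe set, of 10 listed.

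Xyloglucan endotransglucosylases cut and rejoin the xyloglucan chains that tie cellulose fibres together. Of 33 listed, 6 were measured and 2 reached the level. XTH32 was at 63.1 without phosphate and 71.8 with full nutrients at 100 h, against 52.8 without phosphate and 21.4 with full nutrients at 4 h. It passed the 2-fold rule in full nutrients with time (log2 ratio 1.75) and for phosphate at 4 h (1.30). EXGT-A3, also named XTH27, had log2 time ratios of -0.31 without phosphate and -0.87 in full nutrients. Neither passed limma's test for time (adjusted p = 0.284 for XTH32 and 0.372 for EXGT-A3).

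The genes whose pattern over the 4 arrays was most like that of each probe set were found among 1999 other named probe sets that reached the level. Likeness was the root mean square distance between log2 values, each centred on its own mean over the 4 arrays. EXPA8 was nearest to AT2G28410, at a distance of 0.10, which was at 110.4 without phosphate and 73.2 with full nutrients at 100 h, against 16.9 without phosphate and 20.6 with full nutrients at 4 h. Next came GH9B8, a glycosyl hydrolase of family 9, at 0.19, and AT1G75800 at 0.19. Both were below the floor on the 4 h arrays, so their place is set in part by the floor.

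EXPA4 was nearest to CCS, the copper chaperone of superoxide dismutase, at 0.035, followed by LHB1B2, a light-harvesting protein of photosystem II (0.049), and AVA-P1, a proteolipid subunit of the vacuolar proton pump (0.059). LHB1B2 was at 5427 without phosphate and 6419 with full nutrients at 100 h, against 3425.5 without phosphate and 3677.3 with full nutrients at 4 h. A shallow pattern such as that of EXPA4 has close neighbours more easily than a steep one.

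Probe set 14612_at of ATPMEPCRB was nearest to AT2G44370 (0.11), AT1G26930 (0.14) and AT2G42360 (0.14). AT1G26930 and AT2G42360 were above the floor throughout. AT2G42360 was at 19.3 without phosphate and 41.5 with full nutrients at 100 h, against 93.3 without phosphate and 129.8 with full nutrients at 4 h. Probe set 19267_s_at was nearest to AT4G01700 (0.31), AT2G17740 (0.31) and UGT87A2, a UDP-glucosyl transferase gene (0.32). UGT87A2 was at 51.2 without phosphate and 74.7 with full nutrients at 100 h, against 327.5 without phosphate and 410.6 with full nutrients at 4 h. The 2 probe sets of ATPMEPCRB were not among each other's 3 nearest. Both were below the floor without phosphate at 100 h, as was AT2G44370, so the distances in this paragraph are set in part by the floor.

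**Figure D4:**
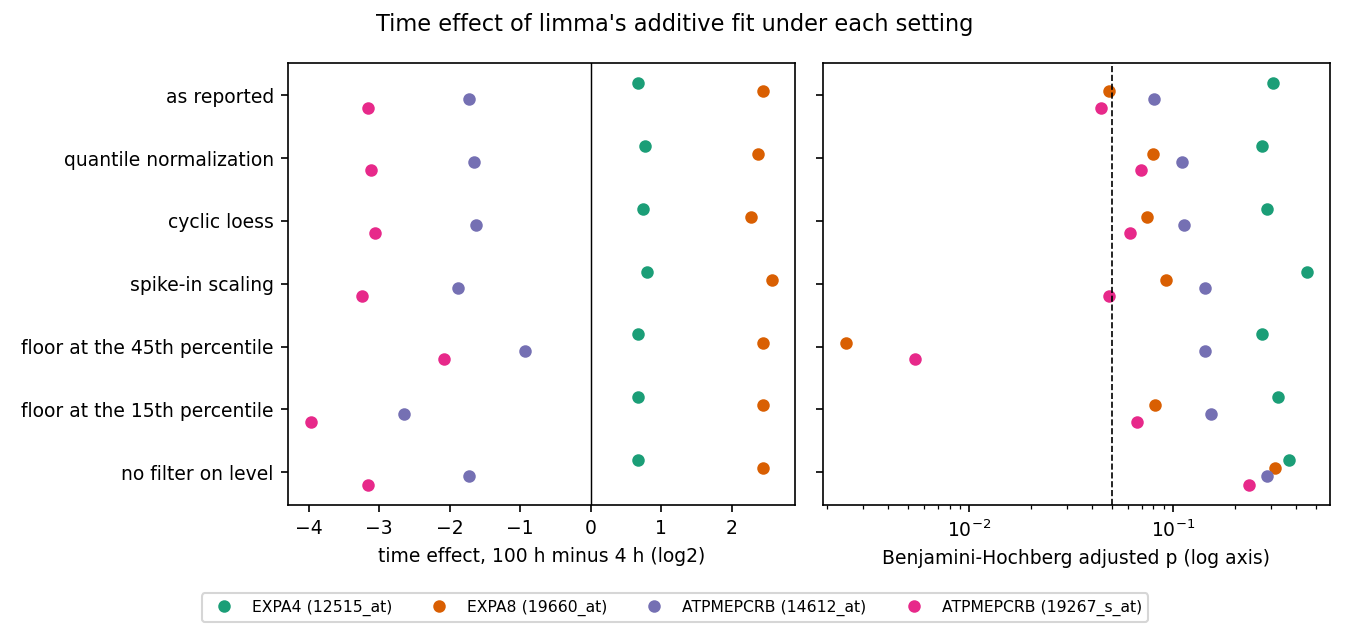
Time effect of limma's additive fit (left, log2, 100 h minus 4 h) and its Benjamini-Hochberg adjusted p (right, log axis, dashed line at 0.05) for the 4 probe sets as reported and under 6 alternative settings. The effects keep their direction in every setting, from 2.28 to 2.57 for EXPA8 and from -3.96 to -2.08 for ATPMEPCRB 19267_s_at, while the adjusted p moves across the threshold.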

How the data were processed

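The authors deposited 1 linear intensity per Affymetrix probe set for each of 4 arrays. How background was corrected and probes were summarised is not given in the sources used. Trimmed means (2% at each end) were 100.2 on every array, so no further scaling was applied. Solution follows the treatment label and time the age label. Of 8297 probe sets, 50 controls were left out. Names came from the platform annotation, where 3794 probe sets name 1 gene, and from RefSeq (TAIR10.1, 3784 matched), used for names and gene order only, because the sources name no genome build.

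The floor is the 30th percentile of an array, averaged over arrays, and the level the median, averaged likewise. The additive model used limma 3.58.1 in R 4.3.3 (lmFit, eBayes, two-sided, Benjamini-Hochberg over 4756 probe sets, threshold 0.05). Its code was run on simulated data with independent noise, additive changes with time, and neither a floor nor an interaction. That run cannot show how the fit behaves on these arrays. Alternatives were quantile normalization, cyclic loess (values under 0.1 set to 0.1), spike-in scaling, floors at the 45th and 15th percentiles, no filter on level, and another control array at 100 h. The members and lists were chosen with earlier results of these data known. Lists were matched on RefSeq symbols and synonyms, since the table holds no descriptions. Named beside the members were the measured list genes, at most 3 a list by time effect with counts for the rest, and the 3 nearest named probe sets. The number of arrays limits precision.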

Additional observations from a re-analysis of the deposited data

Results flagged for a closer look

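EXPA8 had a positive log2 ratio for phosphate at 100 h (0.46) and a negative one at 4 h (-0.27). It was picked out because its single array pairs moved in opposite directions at the 2 times. With spike-in scaling both were positive, at 1.52 (100 h) and 0.24 (4 h). The difference was not tested, as reported neither ratio reached 2-fold, and they lay 1.06 measurement SDs (100 h) and 0.73 (4 h) from no change.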

How the results depend on the processing

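The count of these 4 probe sets past the 2-fold rule for time was 3 in each solution. Of all probe sets tested, 32.8% without phosphate and 19.1% in full nutrients passed as reported, in either direction. The count changed only without phosphate with the floor at the 45th percentile, to 2 (27.8% of all), where 14612_at had a log2 ratio of -0.65. For phosphate at 100 h the count was 0 as reported, against 10.1% of all probe sets tested. It was 1 with spike-in scaling (EXPA8, where 60.4% of all probe sets tested were called) and 3 against full nutrients at 4 h (25% of all). For phosphate at 4 h it was 0 under all 6 alternatives, where 6.63% to 19.1% of all probe sets tested were called. For time in limma's fit 2 probe sets passed as reported and also under the 45th-percentile floor. There were 0 after quantile normalization, cyclic loess, the floor at the 15th percentile and no filter on level, and 1 with spike-in scaling (19267_s_at). Over all probe sets those fits called 96 as reported, 365 with the higher floor, 27 with spike-in scaling and 0 in the others. The EXPA4 phosphate effect turned from -0.21 to 0.58 with spike-in scaling and passed the test in neither setting. The cause of these changes was not tested. The EXPA8 time effect was 2.45 as reported, with either other floor and with no filter on level, and its 4 values lay above every floor. Its limma adjusted p was 0.0487 as reported, 0.00248 and 0.0814 with the 45th- and 15th-percentile floors, and 0.317 with no filter. The 100 h values of ATPMEPCRB, below the level in both solutions, limit what can be said of phosphate there. No paired analysis was possible because each group has 1 array, and no array could be left out for the same reason.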
